A study of Homo sapiens with 16 samples.

Results

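Paclitaxel alone was compared with the solvent DMSO in MDA-MB-231 cells, an established human triple-negative breast cancer line of mesenchymal character. The comparison holds the 4 libraries labelled paclitaxel and the 4 labelled DMSO, chosen by those labels, which are 8 of the 16 RNA sequencing libraries of the series. The other 8 come from cells given afatinib, an inhibitor of the EGFR family of receptor kinases (4 libraries), or afatinib together with paclitaxel (4 libraries, the combination). All groups were grown in DMEM with fetal bovine serum and antibiotics. Dose, exposure time and passage are not given in the sources used here, and nothing states whether replicates were separate cultures, so p-values measure the spread between these libraries, which may be technical. A single cell line stands for the tumour type.

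Paclitaxel binds β-tubulin inside microtubules and slows their shortening. Spindles built from such microtubules satisfy the spindle checkpoint late or with errors, so dividing cells are delayed in mitosis and may leave it without dividing properly. Transcripts of DNA replication genes peak in late G1 and S phase and are driven by E2F factors, whereas those of mitosis genes peak in G2 and M phase and depend on MuvB complexes with B-MYB and FOXM1. In bulk RNA, a smaller share of cells in a phase and less of a transcript per cell cannot be told apart.

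With paclitaxel, genes of the G1/S transition and of DNA replication were lower as a group, while genes of mitosis were called in both directions: 8 of 14 kinesins and 18 of 31 spindle and cytokinesis genes were higher, and CDK1, TOP2A, the Aurora B kinase gene and 11 of 27 kinetochore genes were lower. Both the higher and the lower calls among mitosis genes were fewer under several other fits, given with them below. Several H2A and H2B histone genes rose, among them HIST2H2BE by 2.40 ± 0.19 on the log2 scale, and HIST1H2BK had the largest rise among genes with an average of at least 3 log2 CPM. Genes of serine synthesis and the amino acid stress response were lower, and clock and insulin signalling regulators changed. Under several other fits fewer serine and clock genes were called, as given with them below. In all, 3694 of 17991 tested genes (20.5%) passed a Benjamini-Hochberg adjusted p of 0.05 in edgeR's quasi-likelihood test, 1557 higher (8.65%) and 2137 lower (11.9%). Most changes were small: at an average of at least 3 on the log2 CPM scale (read counts scaled to library size) over all 16 libraries, 4 genes were more than 2-fold higher and 3 more than 2-fold lower. All 4 paclitaxel libraries lay above all 4 DMSO libraries for 810 genes (4.5%) and below them for 938 (5.21%).

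The 8 libraries held 28366004 to 47155036 counts, paclitaxel replicate 4 the fewest. Replicates 1 and 2 stood apart from replicates 3 and 4 on the first principal component (49% of the variance), and the second (20.3%) placed DMSO at 14.9 to 24.4 and paclitaxel at −23.2 to −17.3. This set of replicates was a term of the fit unless another is named. Labelled RNA concentrations were 1050.5, 1290.9, 292.1 and 330 ng/µl in DMSO replicates 1 to 4 and 345.6, 429.7, 300.5 and 204.2 with paclitaxel, so concentration moved with treatment in replicates 1 and 2, and its part in the results was not tested beyond the fits that carry it as a term. With log2 concentration beside the set 1923 genes were called, 691 higher and 1232 lower. Replicates 1 and 2 alone gave 1779 calls, replicates 3 and 4 alone 796, and all libraries without the set term 625. A limma fit without the set term on the authors' deposited log2 table, which they corrected for concentration, called 240 genes higher and 908 lower, so table, method and set term differed together there. A fit with log2 RNA concentration beside the set is called the concentration term below, and the limma fit the deposited-table fit. Markers of the line (12 genes, among them VIM, CD44 and AXL) summed to 8700 to 10956 CPM in DMSO and 7866 to 9528 with paclitaxel, 12 luminal markers to 84.5 to 132 and 84.9 to 115, 7 blood cell markers to 0.795 to 1.15 and 1.17 to 2.32 (CD3E at 0), and 9 fibroblast and endothelial markers to 7.52 to 17.6 and 6.48 to 11.997. The part of other cell types in the results was not tested.

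**Figure D1:**
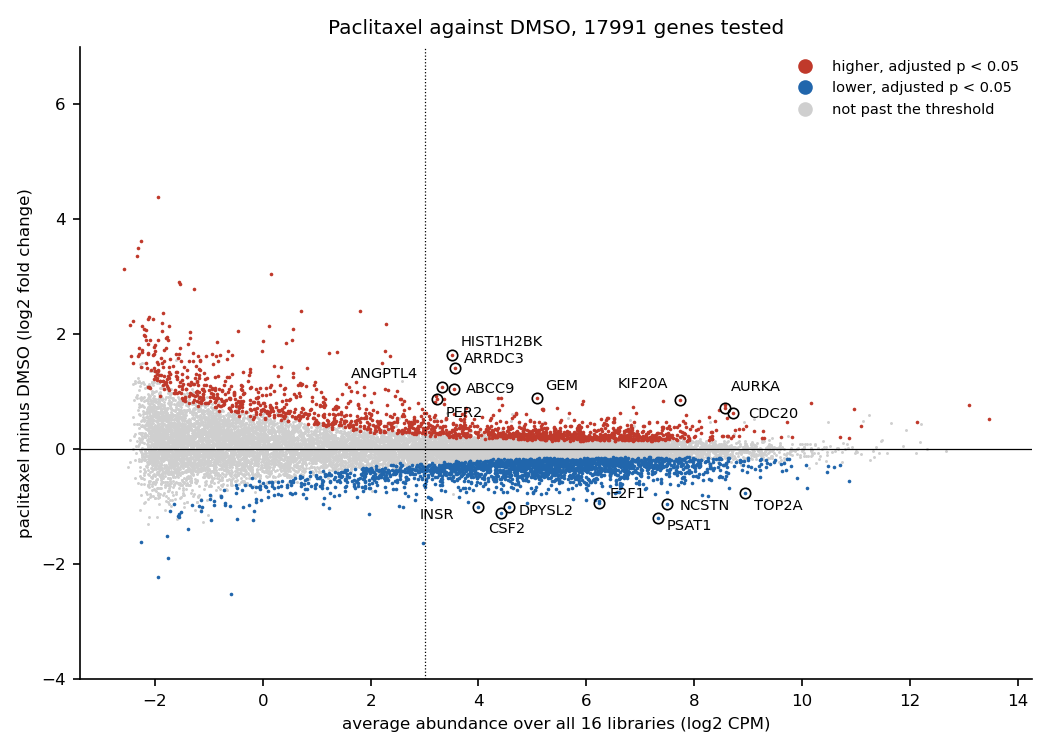
Log2 fold change of paclitaxel against DMSO (vertical axis) over average abundance in log2 CPM (horizontal axis), 1 point per tested gene, red where higher and blue where lower at an adjusted p under 0.05, with a dotted line at 3. Of 17991 genes 1557 were higher and 2137 lower, and the spread of the fold changes narrows with abundance.

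The G1/S and S phase genes were examined first. Of 118 tested genes on the lists for G1/S control, replication licensing, DNA synthesis and repair by homologous recombination and the Fanconi pathway, 71 fell and 2 rose, with a median of −0.28 against −0.00087 over all tested genes. E2F1, E2F2 and E2F8, MCM6 and the primase partner POLA2 were among those that fell. The promoters of 3 of them are shown because they carry copies of the E2F word, which marks many genes of this phase. The sequences are the 160 bases before the RefSeq start on GRCh38.p14, on the gene's strand, with E2F words on either strand in capitals. E2F1 lies at chr20:33686386-33686545 (minus strand), MCM6 at chr2:135876444-135876603 (minus strand) and POLA2 at chr11:65261802-65261961 (plus strand).
E2F1: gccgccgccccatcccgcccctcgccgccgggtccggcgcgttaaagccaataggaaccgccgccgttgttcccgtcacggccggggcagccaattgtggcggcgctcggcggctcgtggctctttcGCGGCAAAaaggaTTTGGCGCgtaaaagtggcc
MCM6: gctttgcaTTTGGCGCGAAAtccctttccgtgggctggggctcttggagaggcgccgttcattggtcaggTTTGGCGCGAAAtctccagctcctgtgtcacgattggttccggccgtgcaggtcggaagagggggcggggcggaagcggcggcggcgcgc
POLA2: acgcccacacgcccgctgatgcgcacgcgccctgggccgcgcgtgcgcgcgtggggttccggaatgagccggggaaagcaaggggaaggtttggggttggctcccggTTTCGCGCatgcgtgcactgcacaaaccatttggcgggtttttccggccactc

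The words searched were TTTCCCGC, TTTCGCGC, TTTGCCGC and TTTGGCGC on both strands, and words on opposite strands can overlap, as both pairs in MCM6 do. In the 300 bases from 250 before to 50 after the start, 4.98% of the 10609 promoters of tested genes held at least 1 word. Among genes that rose the share was 3.57%, and among genes that fell 7.14%. It was 12 of 20 (60%) for replication licensing and 12 of 35 (34.3%) for DNA synthesis. Within the 4 G1/S and S phase lists, the word stood in 22 of 60 promoters of genes that fell (36.7%) and in 12 of 38 of genes not called (31.6%). A match describes the letters and is neither a site nor a cause.

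E2F1, the activating factor of S phase entry (gene at chromosome 20), stood at 114, 115, 95.4 and 98.7 CPM in DMSO replicates 1 to 4 and at 59.4, 50.2, 54.4 and 57.9 with paclitaxel. The groups did not overlap, and the change was −0.93 ± 0.06 (log2 ± SE; edgeR adjusted p = 2.43e-10). Its relative E2F2 changed by −0.82 ± 0.09 and the repressor E2F8 by −0.59 ± 0.06. CCNE2, a cyclin that activates CDK2, fell from 29.1, 29.4, 29.8 and 29.4 CPM to 15, 16.6, 20.4 and 19.1 (−0.74 ± 0.09; adjusted p = 1.48e-06). The DMSO values of CCNE2 were nearly equal, and those with paclitaxel were lower in replicates 1 and 2. CCNE1 (−0.51 ± 0.08), CDK2 (−0.39 ± 0.05), CDK6 (−0.36 ± 0.07) and SKP2 (−0.57 ± 0.07), which targets p27 for degradation, fell too. CDK4 fell as well (−0.38 ± 0.06), but it was at −0.08 (adjusted p = 0.511) with log2 RNA concentration in place of the set and at −0.03 (adjusted p = 0.887) in the deposited-table fit. Among the restraints on this step, CDKN1A, which encodes p21, fell from 47.6, 54.1, 41.5 and 37.7 CPM to 26.9, 26.4, 28.3 and 24.5 (−0.76 ± 0.08; adjusted p = 8.57e-08). CCND1, CDKN1B and RB1 differed by 0.05 ± 0.06, −0.06 ± 0.07 and −0.06 ± 0.06 and did not pass. In all 13 of 26 G1/S control genes fell. The 1 that rose, CCND2 (0.98 ± 0.35; adjusted p = 0.047), kept that call in leave-one-out fits only without paclitaxel replicate 1.

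Replication licensing loads the MCM helicase onto origins before S phase, and 14 of its 24 genes fell. MCM6 was at 124, 132, 130.2 and 119 CPM in DMSO and 76.2, 68, 77.2 and 76.6 with paclitaxel (−0.76 ± 0.07; adjusted p = 1.21e-08), with every paclitaxel library below every DMSO library. MCM5 (−0.60 ± 0.08), MCM3 (−0.49 ± 0.06), the helicase cofactor CDC45 (−0.70 ± 0.06) and the GINS subunits GINS1 (−0.67 ± 0.06) and GINS2 (−0.54 ± 0.07) followed. DBF4, the activator of the kinase that fires origins, was the 1 licensing gene that rose. Its values were 44.2, 43.9, 36.6 and 30.6 CPM and 62.4, 74.5, 46.1 and 41.7 (0.51 ± 0.08; adjusted p = 6.09e-05), and the groups overlapped because replicates 3 and 4 were lower in both.

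DNA synthesis genes fell in 28 of 40 cases, with a median of −0.34. ASF1B, a histone chaperone at the fork, went from 79.4, 84.1, 71.4 and 67.5 CPM to 49.8, 45.3, 45.1 and 43.4 (−0.72 ± 0.06; adjusted p = 3.8e-09). POLA2 changed by −0.63 ± 0.06, the ribonucleotide reductase subunit RRM2 by −0.59 ± 0.05, the flap nuclease FEN1 by −0.58 ± 0.06, the sliding clamp PCNA by −0.56 ± 0.06 and the uracil glycosylase UNG by −0.52 ± 0.08. SLBP, which binds the stem-loop of replication-dependent histone mRNAs, differed by −0.10 ± 0.06 and did not pass. Of 28 genes of homologous recombination and the Fanconi pathway 16 fell, with a median of −0.24. RMI2, a subunit of the complex that dissolves Holliday junctions, fell from 8.03, 9.51, 8.97 and 7.77 CPM to 4.61, 4.08, 4.18 and 4.37 (−0.998 ± 0.11; adjusted p = 2.41e-07), EXO1 by 0.63 ± 0.06 and BRCA1 by 0.48 ± 0.05 on the log2 scale. With the concentration term 60 of the 118 genes of the 4 lists fell, in replicates 3 and 4 alone 46, and in the deposited-table fit 35.

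**Figure D2:**
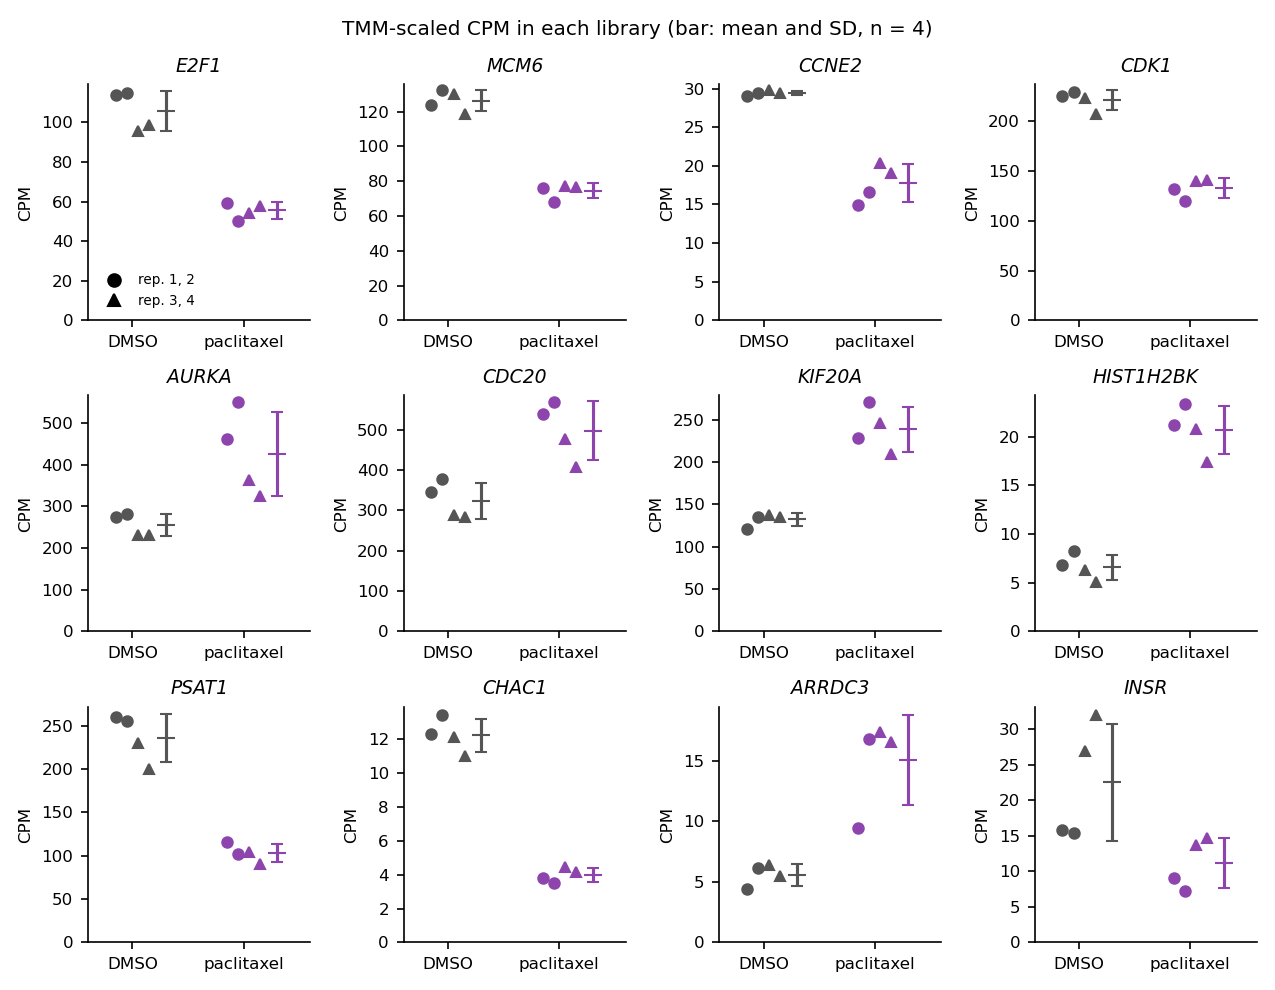
TMM-scaled CPM (vertical axes, from 0) of 12 genes in each of the 4 DMSO and 4 paclitaxel libraries, circles for replicates 1 and 2 and triangles for replicates 3 and 4, with the mean and SD beside them. The groups do not overlap in any of the 12 panels, and INSR, for example, is higher in replicates 3 and 4 of both groups.

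Mitosis genes split. On 6 lists (entry, checkpoint and anaphase-promoting complex, kinesins, spindle and cytokinesis, kinetochore, condensin and cohesin) 46 of 152 tested genes rose and 49 fell, with a median of 0.03. With the concentration term 28 rose and 38 fell, in replicates 3 and 4 alone 19 and 23, without the set term 17 and 15, and in the deposited-table fit 6 and 29. Many such genes carry a CHR element, TTTGAA, near the start, at which MuvB complexes act in G2 and M phase. Shown in capitals below is each TTTGAA in the 160 bases before the RefSeq start (GRCh38.p14, gene's strand) of 3 genes that rose and of CDK1, which fell. The regions are chr16:23678729-23678888 (PLK1), chr1:43358821-43358980 (CDC20), chr15:59104986-59105145 (CCNB2) and chr10:60778318-60778477 (CDK1), each on the plus strand.
PLK1: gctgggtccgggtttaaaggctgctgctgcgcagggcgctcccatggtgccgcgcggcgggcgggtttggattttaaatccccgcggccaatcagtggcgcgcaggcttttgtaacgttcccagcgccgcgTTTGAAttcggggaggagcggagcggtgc
CDC20: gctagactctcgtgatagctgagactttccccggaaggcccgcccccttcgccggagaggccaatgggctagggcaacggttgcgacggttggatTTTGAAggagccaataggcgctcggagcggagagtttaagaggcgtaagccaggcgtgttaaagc
CCNB2: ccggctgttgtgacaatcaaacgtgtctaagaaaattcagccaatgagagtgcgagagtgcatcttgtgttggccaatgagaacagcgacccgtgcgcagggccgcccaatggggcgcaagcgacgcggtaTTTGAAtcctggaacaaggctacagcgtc
CDK1: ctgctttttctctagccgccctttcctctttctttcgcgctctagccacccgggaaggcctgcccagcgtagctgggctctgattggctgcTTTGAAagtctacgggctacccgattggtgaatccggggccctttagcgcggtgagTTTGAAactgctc

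PLK1 and CCNB2 hold 1 TTTGAA here, CDC20 also 1 and CDK1 2, the latter 69 and 13 bases before the start. CDK1 also holds the E2F word TTTCGCGC, 128 bases before the start. On both strands TTTGAA stood in 10.6% of promoters of tested genes, in 15.1% of those of genes that rose and in 9.82% of those of genes that fell. It reached 18 of 25 promoters (72%) on the spindle and cytokinesis list. Within the 6 mitosis lists it stood in 25 of 38 promoters of genes that rose (65.8%), in 17 of 38 of genes that fell (44.7%) and in 22 of 48 of genes not called (45.8%). The E2F word stood in 2 of 38 (5.26%), 10 of 38 (26.3%) and 4 of 48 (8.33%) of the same groups. CCAAT, the core of the NF-Y box, stood in 27 of 38 (71.1%), 28 of 38 (73.7%) and 23 of 48 (47.9%), against 35.5% of all.

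Of 26 mitotic entry genes 7 rose and 12 fell (7 with the concentration term). AURKA, the kinase of spindle poles, was at 274, 282, 231.31 and 232 CPM in DMSO and 460.4, 549.8, 364 and 325 with paclitaxel (0.72 ± 0.07; adjusted p = 1.68e-07). Its groups did not overlap, and the paclitaxel values were higher in replicates 1 and 2. BORA, which helps Aurora A to activate PLK1, rose by 0.68 ± 0.08, PLK1 itself by 0.50 ± 0.05, CCNB1, the cyclin of CDK1, by 0.69 ± 0.06, and CCNB2 by 0.41 ± 0.06. CDK1 moved the other way, from 226, 229.8, 223 and 207 CPM to 132, 119.5, 141 and 141 (−0.74 ± 0.07; adjusted p = 5.65e-08). Its binding partner CKS1B (−0.68 ± 0.06), the inhibitory kinase PKMYT1 (−0.57 ± 0.07) and AURKB, the kinase of the chromosomal passenger complex (−0.54 ± 0.06), also fell, each with no overlap between groups. FOXM1, a driver of G2 and M phase transcription, differed by 0.09 ± 0.07 and did not pass.

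Around the anaphase-promoting complex 5 of 31 genes rose (16.1%, 3 with the concentration term) and 7 fell (22.6%), against 8.65% and 11.9% of all tested genes. CDC20, its activator in mitosis, rose from 345, 377, 288 and 284 CPM to 539, 570.2, 476 and 407 (0.62 ± 0.06; adjusted p = 3.24e-08), and its substrate PTTG1, the securin, by 0.39 ± 0.06. FBXO5, which inhibits the complex before mitosis, fell from 48.5, 50.9, 49.8 and 43.4 CPM to 25.2, 27, 30.8 and 31.8 (−0.76 ± 0.08; adjusted p = 1.5e-07). The ubiquitin-conjugating enzyme UBE2C (−0.57 ± 0.09) and ZWINT (−0.57 ± 0.05), which links kinetochore and checkpoint, fell as well. The checkpoint gene MAD2L1 differed by 0.12 ± 0.05 and did not pass.

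Motor and spindle genes followed. Among 14 mitotic kinesins 8 rose, with a median of 0.23, and 1 fell, KIF11 (−0.15 ± 0.05), a call kept in leave-one-out fits only without DMSO replicate 2 or paclitaxel replicate 2. KIF20A, needed for cytokinesis, went from 121, 135, 138 and 135 CPM to 228, 271, 245 and 209 (0.85 ± 0.07; adjusted p = 7.57e-09). KIF18A, which limits kinetochore microtubule length, rose from 74.8, 69.7, 75.1 and 76.8 to 121, 142, 121 and 112 CPM (0.74 ± 0.06; adjusted p = 7.57e-09). CENPE changed by 0.60 ± 0.08, and the microtubule depolymerase gene KIF2C, at 0.04 ± 0.05, did not pass. With the concentration term 4 of the 14 rose, as in replicates 3 and 4 alone, and in the deposited-table fit 2.

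Of 31 spindle and cytokinesis genes 18 rose and 7 fell, with a median of 0.32. The rises were 13 with the concentration term, 8 without the set term, 6 in replicates 3 and 4 alone and 0 in the deposited-table fit, where 6 fell. TROAP (0.63 ± 0.08), CKAP2 (0.54 ± 0.07) and TPX2, the activator of Aurora A on spindles (0.48 ± 0.07), rose with no overlap. NUSAP1, which bundles spindle microtubules, fell from 150.33, 149.97, 151 and 143 CPM to 96.3, 92.3, 101 and 100.3 (−0.61 ± 0.06; adjusted p = 3.34e-08). GAS2L3, a linker of actin and microtubules outside the lists, was among the 15 largest rises, from 31.8, 28.6, 37.2 and 37.4 CPM to 56, 68.3, 61.6 and 55.3 (0.85 ± 0.08; adjusted p = 1.06e-07).

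On the chromosome side more genes fell. Of 27 kinetochore genes 11 fell and 4 rose, and of 23 condensin and cohesin genes 11 fell and 4 rose. The counts of rises dropped to 2 without paclitaxel replicate 2 for the kinetochore, and to 2 without DMSO replicate 2 and 1 without paclitaxel replicate 2 for condensin and cohesin. With the concentration term 1 gene rose and 9 fell on each. Without the set term 4 kinetochore genes and 2 condensin and cohesin genes fell. Within the NDC80 complex, which holds microtubules at the kinetochore, NDC80 rose (0.38 ± 0.06) while SPC24 fell from 25.7, 25.2, 26.1 and 25.8 CPM to 18.1, 16.2, 15.8 and 16.6 (−0.63 ± 0.07; adjusted p = 6.5e-07). SPC25 fell too (−0.80 ± 0.17). TOP2A, the topoisomerase that untangles sister chromatids, was at 518, 482, 632 and 654 CPM in DMSO and 290.5, 271, 383 and 408 with paclitaxel (−0.77 ± 0.08; adjusted p = 1.38e-07). SGOL2, a protector of centromeric cohesion, rose (0.55 ± 0.07).

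**Figure D3:**
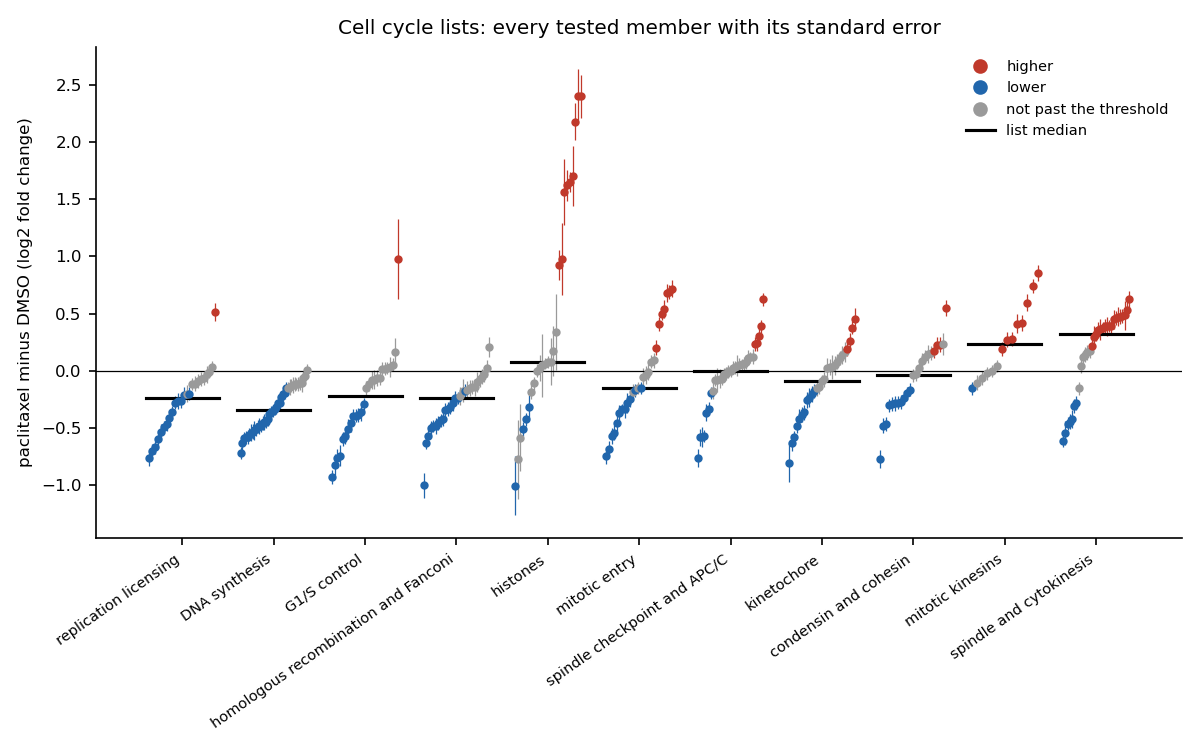
Log2 fold change of paclitaxel against DMSO with its standard error (vertical axis) for every tested member of 11 cell cycle lists (horizontal axis), red where higher, blue where lower and grey where not past the threshold, with a bar at each list's median. Medians run from −0.34 for DNA synthesis to 0.32 for spindle and cytokinesis, and the mitosis lists hold both colours.

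Of 25 tested histone genes 9 rose and 4 fell (2 with the concentration term). HIST2H2BE, an H2B gene (chromosome 1, 149884459 to 149886652 in GENCODE v29), rose from 1.76, 2.14, 1.56 and 1.08 CPM in DMSO to 7.26, 8.31, 10.2 and 8.78 with paclitaxel (2.40 ± 0.19; adjusted p = 1.02e-08). HIST1H2BC (0.48, 1.21, 0.756 and 0.62 to 3.93, 4.42, 4.28 and 3.52 CPM) and HIST1H2AC (2.29, 2.72, 1.53 and 2.62 to 9.2, 11.7, 11.1 and 9.07 CPM), which stand head to head 218 bases apart on chromosome 6, rose by 2.40 ± 0.23 and 2.18 ± 0.16. In each of these genes the lowest paclitaxel library was more than any DMSO library.

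HIST1H2BK (chromosome 6, 27146418 to 27146798) had the smallest p of all tested genes, with 6.77, 8.21, 6.35 and 5.1 CPM in DMSO and 21.2, 23.3, 20.8 and 17.4 with paclitaxel (1.65 ± 0.09; adjusted p = 6.04e-12). HIST1H2BD (1.62 ± 0.13), HIST1H2BJ (1.70 ± 0.26), HIST1H2BN (1.56 ± 0.29) and the linker histone gene HIST1H1C (0.92 ± 0.13) rose too. Of the 9 that rose, 6 are H2B genes, 2 are H2A genes and 1 is a linker histone gene. HIST2H2AC, an H2A gene 322 bases from HIST2H2BE and read from the other strand, fell from 0.824, 1.21, 0.864 and 0.566 CPM to 0.405, 0.47, 0.492 and 0.37 (−1.002 ± 0.26; adjusted p = 0.00645), which was −0.46 with the concentration term (adjusted p = 0.417). The replacement variants H3F3A (−0.51 ± 0.06) and H2AFX (−0.42 ± 0.06), whose phosphorylated product marks DNA breaks, fell. HIST1H4C, an H4 gene, differed by −0.77 ± 0.35 and did not pass. Replication-dependent histone mRNAs end in a stem-loop rather than a poly(A) tail, and some of these genes also make polyadenylated transcripts. Whether the libraries selected poly(A) RNA is not given in the sources used here, so the levels stand for what the libraries captured. Histone genes are near-identical copies, and reads may have been split between them.

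The tubulin list holds genes of β-tubulin, which paclitaxel binds, and of other tubulins, such as the α-tubulin gene TUBA1C. Of its 14 tested genes 4 fell (28.6%, against 11.9% of all tested genes) and 2 rose (14.3%, against 8.65%), with a median of −0.02. With the concentration term 2 fell. TUBB was at 33, 37, 32.7 and 30.5 CPM in DMSO and 21.5, 19.8, 22.6 and 19.6 with paclitaxel (−0.67 ± 0.07; adjusted p = 2.99e-07), but its reads stood on several identifiers outside the primary assembly, so the level is uncertain. TUBA1C fell from 479.9, 471, 399.9 and 385 to 353, 279, 315 and 291 CPM (−0.48 ± 0.07), whereas TUBB6 (0.23 ± 0.06) and TUBB2A (0.26 ± 0.07) rose. TUBB3, the neuronal isotype often studied in taxane resistance, stood at 2.08, 1.87, 2.12 and 1.89 and 2.32, 1.88, 1.92 and 2.89 CPM and did not pass (0.15 ± 0.16). TTC5, the sensor through which free tubulin triggers decay of its own mRNA, fell (−0.35 ± 0.06; adjusted p = 0.000292).

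Among 38 genes of tubulin folding and microtubule binding 6 fell (2 with the concentration term) and 1 rose. These shares were 15.8% and 2.63%, against 11.9% and 8.65% of all tested genes. The 1 rise became 0 without DMSO replicate 4 and 2 without paclitaxel replicate 4. The largest change was in DPYSL2, which encodes the tubulin-binding protein CRMP2. It went from 30.2, 33.3, 36.7 and 33.4 CPM to 14.4, 14.7, 19.4 and 18.8 (−1.001 ± 0.08; adjusted p = 1.48e-09), with every paclitaxel library at most 19.4 CPM and every DMSO library at least 30.2. MAP4, the main microtubule-associated protein of non-neuronal cells, differed by 0.06 ± 0.05 and did not pass.

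Serine synthesis and the amino acid response were lower. PSAT1, the aminotransferase of serine synthesis (chromosome 9, 78297143 to 78330093), stood at 259, 255, 229 and 199.5 CPM in DMSO and 116, 102, 104 and 90.0 with paclitaxel (−1.19 ± 0.07; adjusted p = 2.02e-11), the largest fall among genes with an average log2 CPM of at least 3. The next enzyme PSPH fell by 0.45 ± 0.07 and the mitochondrial folate enzyme MTHFD2 by 0.68 ± 0.07 on the log2 scale. In all 10 of 18 serine and one-carbon genes fell, among them TYMS, thymidylate synthase (−0.44 ± 0.06), which is also on the DNA synthesis list. The falls on this list were 7 with the concentration term, 2 without the set term and 2 in the deposited-table fit. They stayed at 10 in replicates 1 and 2 alone.

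ATF4 is the factor that raises such genes when translation factor eIF2 is phosphorylated, and 15 of its 24 listed targets and partners fell (9 with the concentration term) while 1 rose (2 without DMSO replicate 1), with a median of −0.31. CHAC1, a glutathione-degrading enzyme, fell most, from 12.3, 13.4, 12.1 and 11 CPM to 3.78, 3.52, 4.43 and 4.15 (−1.63 ± 0.12; adjusted p = 9.45e-10). ASNS, asparagine synthetase, changed from 87.5, 87.5, 81.1 and 75.8 to 47.3, 64, 64.6 and 47.5 CPM (−0.57 ± 0.12; adjusted p = 0.00194), and by −0.51 with the concentration term (adjusted p = 0.0515). The pseudokinase gene TRIB3 fell by 0.36 ± 0.07. DDIT3, which encodes CHOP and is itself an ATF4 target, was the 1 that rose, from 11.3, 9.48, 7.69 and 7.69 CPM to 16.4, 15.9, 13.4 and 13.5 (0.72 ± 0.11; adjusted p = 8.57e-05). ATF4 itself differed by −0.04 ± 0.09 and did not pass. The neutral amino acid transporter SLC1A4 (−0.93 ± 0.12) and SLC38A2 (−0.51 ± 0.12) fell. Of 21 tRNA synthetase genes 7 fell, among them IARS (−0.36 ± 0.05) and WARS (−0.34 ± 0.06), and 4 fell with the concentration term or without DMSO replicate 1, paclitaxel replicate 1 or paclitaxel replicate 4. In replicates 3 and 4 alone 1 fell, and without the set term also 1. With afatinib present 6 of the 21 rose and 0 fell.

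Of 17 fatty acid synthesis genes 8 fell, including ACLY, which makes cytosolic acetyl-CoA (−0.39 ± 0.06), and SREBF1, the factor that drives them (−0.42 ± 0.10). On the cholesterol list 3 of 26 rose (1 with the concentration term) and 3 fell (6 without DMSO replicate 3). Each share was 11.5%, against 8.65% higher and 11.9% lower among all tested genes. HMGCS1, an early enzyme of that pathway, rose from 38.8, 33.3, 37.2 and 35.3 CPM to 44.8, 46.5, 45.3 and 43.8 (0.32 ± 0.06; adjusted p = 0.000158), while INSIG1, which retains SREBP factors in the endoplasmic reticulum, fell (−0.30 ± 0.07).

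FOXO and insulin signalling genes rose in 7 and fell in 4 of 26 cases (26.9% and 15.4%, against 8.65% and 11.9% of all tested genes). ARRDC3, an arrestin-domain protein of receptor trafficking, was at 4.39, 6.11, 6.38 and 5.45 CPM in DMSO and 9.49, 16.8, 17.4 and 16.6 with paclitaxel (1.42 ± 0.15; adjusted p = 1.82e-06). Its relatives ARRDC4 (2.04, 2.05, 1.53 and 1.29 to 3.93, 3.91, 3.52 and 3.89 CPM; 1.14 ± 0.12) and TXNIP (0.52 ± 0.07), which limit glucose uptake, rose as well. INSR, the insulin receptor, fell from 15.8, 15.4, 26.9 and 32 CPM to 9.02, 7.3, 13.7 and 14.6 (−0.998 ± 0.10; adjusted p = 5.5e-08), and IGF1R by 0.30 ± 0.07. INSR was higher in replicates 3 and 4 of both groups, yet the groups did not overlap.

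Clock genes rose in 6 and fell in 1 of 18 cases, the fall becoming 0 without DMSO replicate 3 or paclitaxel replicate 1. The rises were 4 with the concentration term, 3 without the set term, 2 in the deposited-table fit and 1 in replicates 1 and 2 alone. With afatinib present 4 rose and 6 fell. PER2, a repressor of the clock's own activators, rose from 6.18, 6.78, 8.23 and 6.64 CPM to 10.4, 12.5, 14.5 and 14 (0.88 ± 0.10; adjusted p = 2.66e-07). PER1 (0.56 ± 0.10) and NR1D1, the nuclear receptor REV-ERBα (0.58 ± 0.10), rose with no overlap between groups. In replicates 1 and 2 alone neither passed (edgeR adjusted p = 0.108 and 0.0816).

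Immediate-early genes, which answer growth factors within minutes, rose in 8 and fell in 8 of 36 cases, with 5 falls with the concentration term and 5 rises without DMSO replicate 4, paclitaxel replicate 3 or paclitaxel replicate 4. Each share was 22.2%, against 8.65% higher and 11.9% lower among all tested genes. In replicates 1 and 2 alone 1 rose and 5 fell, in replicates 3 and 4 alone 9 and 5, and without the set term 2 and 3. With afatinib present 4 rose and 15 fell. NR4A3, an orphan nuclear receptor gene, rose from 0.549, 0.268, 0.411 and 0.243 CPM to 1.03, 1.05, 1.58 and 1.26 (1.71 ± 0.25; adjusted p = 1.67e-05), and EGR2 from 0.412, 0.201, 0.0648 and 0.189 to 0.72, 0.811, 0.665 and 0.518 (1.67 ± 0.38), both near the lower limit of what was tested. DUSP6, the phosphatase that ERK induces against itself, fell from 46.2, 43.9, 47.1 and 48.7 CPM to 21.7, 29, 32.6 and 31.2 (−0.71 ± 0.08; adjusted p = 2.35e-07). EGR2 did not pass in replicates 1 and 2 alone (edgeR adjusted p = 0.141). Of 35 SRF and contractile actin genes 5 rose and 8 fell (2 and 4 with the concentration term), with 5 falls without paclitaxel replicate 2 or 4. These shares were 14.3% and 22.9%, against 8.65% and 11.9% of all tested genes. The small GTPase genes GEM (19.4, 19.996, 17.2 and 16.7 to 36, 41.3, 32.1 and 26.6 CPM; 0.88 ± 0.07) and RRAD (0.89 ± 0.10) were among those that rose.

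Interferon-stimulated genes fell in 20 of 47 cases, with a median of −0.21. The count was 10 with the concentration term and in the deposited-table fit, and 7 in each set of replicates alone. APOL6 went from 26.3, 26.2, 48.6 and 58.2 CPM to 13.5, 14.2, 27.3 and 27.5 (−0.94 ± 0.08; adjusted p = 7.57e-09). The groups overlapped because APOL6 was about as high in paclitaxel replicates 3 and 4 as in DMSO replicates 1 and 2. DDX58, the RNA sensor RIG-I, fell from 46, 46.8, 55 and 55.3 to 30.3, 31.8, 36.6 and 39.8 CPM (−0.56 ± 0.06). Cytokine and NF-kB genes rose in 3 and fell in 5 of 33 cases (9.09% and 15.2%, against 8.65% and 11.9% of all tested genes). With the concentration term 2 fell, and 2 to 3 fell without DMSO replicate 2, DMSO replicate 4, paclitaxel replicate 1 or paclitaxel replicate 3. CSF2, the growth factor GM-CSF, fell from 31.5, 24.4, 33.1 and 53.7 CPM to 12.8, 12.4, 18.7 and 23.1 (−1.10 ± 0.17; adjusted p = 0.000387). IL24 (0.618, 0.937, 0.8 and 0.863 to 2.32, 2.39, 1.45 and 1.74 CPM; 1.28 ± 0.18) and TNFAIP3, the NF-kB inhibitor A20 (0.70 ± 0.07), rose, while NFKBIA, which encodes IκBα, fell (−0.41 ± 0.07).

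Survival and drug handling genes were examined next. Of 33 BCL2 family and apoptosis genes 6 fell (18.2%), against 11.9% of all tested genes and 18.9% of those at 3 to 6 log2 CPM. With the concentration term 3 fell. MCL1 went from 443, 432, 464 and 460.2 to 281, 299, 366 and 367 CPM (−0.46 ± 0.06; adjusted p = 1.05e-05) and BCL2L1 changed by −0.33 ± 0.06. Among 30 p53 targets 5 fell (16.7%, beside the same shares of all genes), CDKN1A the most. Of 13 drug efflux genes 2 rose and 3 fell (5 without DMSO replicate 3), with a median of −0.16. These shares were 15.4% and 23.1%, against 8.65% and 11.9% of all tested genes. ABCC9, a subunit of potassium channels on the efflux transporter list, rose from 6.79, 6.76, 6.72 and 6.96 CPM to 14.8, 12.1, 15.4 and 13.8 (1.04 ± 0.10; adjusted p = 5.33e-08). ABCG2, a drug efflux pump, rose by 0.60 ± 0.10, with overlap between groups. Among EGFR ligands EREG (14.2, 12.4, 19.9 and 24.9 to 21.7, 22.9, 31.6 and 36.6 CPM; 0.68 ± 0.09; adjusted p = 3.14e-06) and AREG (0.58 ± 0.12) rose. EGFR, the target of afatinib, fell (−0.26 ± 0.09; adjusted p = 0.0376), a call lost without DMSO replicate 1 or 4 or paclitaxel replicate 2, 3 or 4.

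ANGPTL4, a lipoprotein lipase inhibitor on the hypoxia list, rose from 6.57, 4.44, 6.31 and 9.06 CPM to 13.4, 10.0, 14.6 and 18 (1.09 ± 0.17; adjusted p = 0.000175), although 12 of the 38 genes of that list fell and 4 rose (7 and 2 with the concentration term). The shares of that list were 31.6% lower and 10.5% higher, against 11.9% and 8.65% of all tested genes. The lactate transporter gene SLC16A1 fell from 3.45, 2.5, 4 and 3.88 to 1.55, 2.11, 2.12 and 2.07 CPM (−0.80 ± 0.13). Matrix and mesenchymal genes fell in 11 of 45 cases, among them the basement membrane collagens COL4A1 (−0.51 ± 0.09) and COL4A2 (−0.50 ± 0.09), and 3 rose, among them MMP3, a matrix protease (0.663, 0.893, 1.02 and 1.16 to 1.66, 1.77, 1.92 and 3.07 CPM; 1.16 ± 0.18), and SNAI1, a repressor of E-cadherin (0.82 ± 0.11). The matrix shares were 24.4% lower and 6.67% higher, against 11.9% and 8.65% of all tested genes. On the matrix list 13 fell with the concentration term, but 0 without the set term and 0 in replicates 3 and 4 alone. With afatinib present 5 of the 45 fell and 8 rose. There COL4A1 and COL4A2 did not pass (edgeR adjusted p = 0.0606 and 0.397). Heat shock genes rose in 6 and fell in 1 of 22 cases, with HSPB8 at 0.55 ± 0.09 and HSPH1 at 0.33 ± 0.06. Without DMSO replicate 1, 3 rose, and without DMSO replicate 4, 2 fell. The remaining genes among the 15 largest rises were TMEM71 (0.89 ± 0.12), NPIPB4 (0.87 ± 0.12), the prolactin receptor gene PRLR (0.81 ± 0.16), MT-ND4L and MTND4P12. The last, a pseudogene of a mitochondrial gene that lies on chromosome 5, and MT-ND4L are described next. The remaining large falls were FLOT2 (−0.90 ± 0.08), FAM111A (−0.88 ± 0.06), PMEPA1 (−0.88 ± 0.07), UCP2 (−0.87 ± 0.07), NCSTN (−0.95 ± 0.10), SLC16A13 (−0.86 ± 0.12), RHPN1 (−0.85 ± 0.10) and NPTXR (−0.83 ± 0.10).

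Of the 24 ribosomal protein genes edgeR called 0, with 0 at an unadjusted p under 0.05 and 0 by DESeq2 or limma voom. Mitochondrially encoded genes rose in 5 of 13 cases in edgeR (4 in DESeq2 and 10 in voom), with a median of 0.50, and this count was 0 without DMSO replicate 3 or paclitaxel replicate 2 or 4, 1 without DMSO replicate 4, 2 without paclitaxel replicate 1 and 10 without paclitaxel replicate 3. It was 0 with the concentration term and in the deposited-table fit, and with the concentration term MT-ND4L was at 0.44 (adjusted p = 0.283) and MTND4P12 at 0.47 (adjusted p = 0.392). The pseudogene MTND4P12 (0.83 ± 0.25) lost its call without DMSO replicate 2, 3 or 4 or paclitaxel replicate 1, 2 or 4, and MT-ND4L (0.80 ± 0.21) without DMSO replicate 3 or paclitaxel replicate 2 or 4. Mitochondrial transcripts took 2.38, 2.26, 4.09 and 4.72% of the counts in DMSO and 3.22, 3.43, 5.03 and 8.09% with paclitaxel. The difference of 1.58 percentage points reached the smallest p that exchanging libraries within the sets allows (two-sided exact permutation test, p = 0.0556, 36 arrangements) and was 0.528 without paclitaxel replicate 4 (exact p = 0.389).

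**Figure D4:**
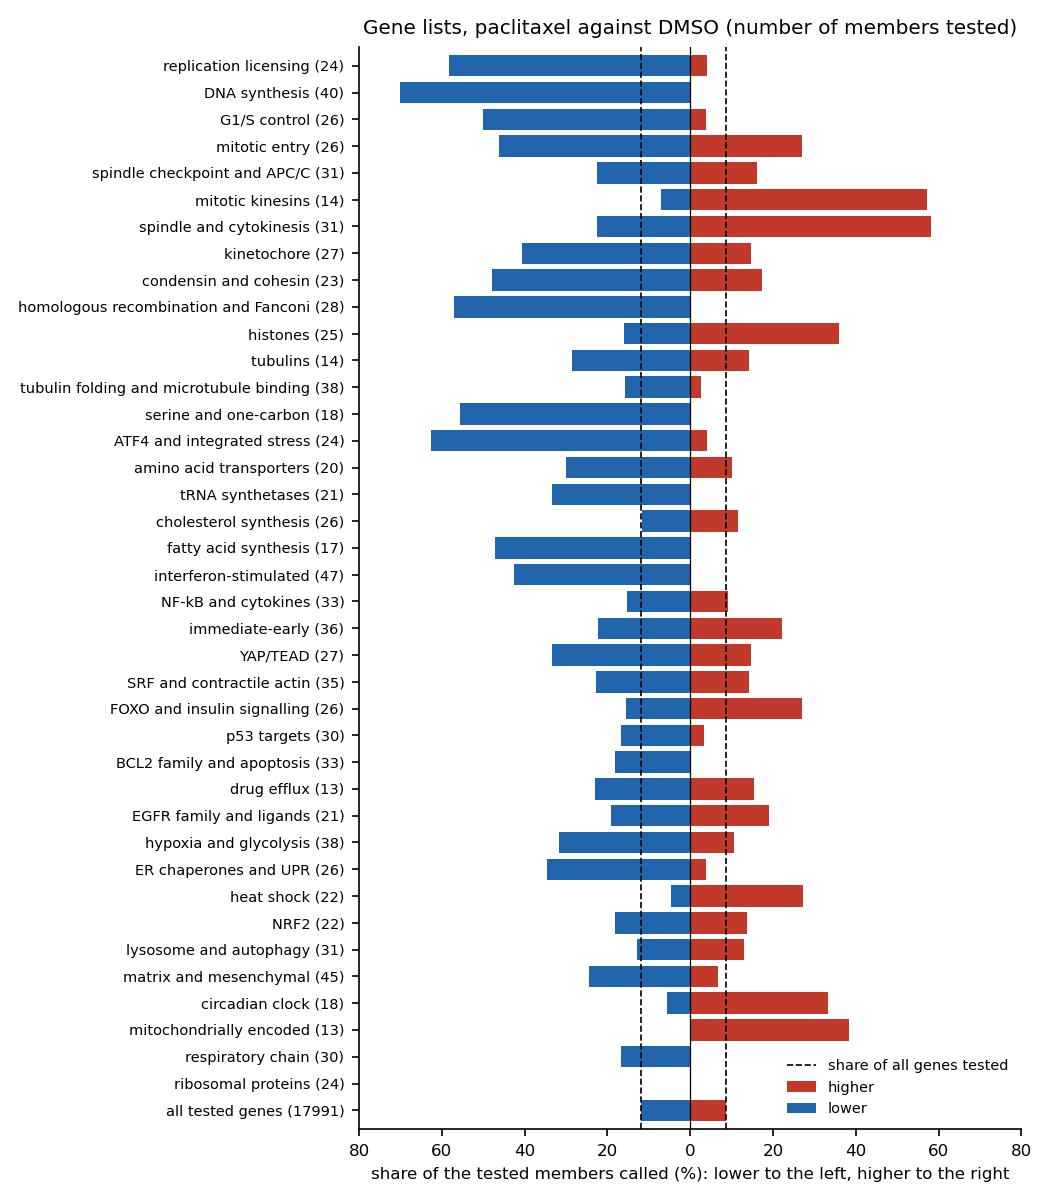
Share of the tested members of each gene list that was higher (red, to the right) or lower (blue, to the left) with paclitaxel than with DMSO, in %, with the number tested in brackets and dashed lines at the shares of all tested genes. The all-gene shares are 8.65% higher and 11.9% lower, and DNA synthesis has the largest share lower (28 of 40).

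Direction depended on abundance. Among 4435 genes with an average log2 CPM under 0, 324 rose and 49 fell, and 198 of the 246 rises over 2-fold were there. Between 3 and 6 the counts were 526 and 1145, and at 6 and over 346 and 649. Paclitaxel replicates 1 to 3 also had more genes with a count than the DMSO libraries of their set (26731 and 26956 against 25468 and 25435 in replicates 1 and 2, and 27603 against 26799 in replicate 3), while replicate 4 had 26348 against 26545. The part of depth and RNA concentration in this was not tested. Protein-coding genes rose in 9.5% and fell in 15% of 13251 cases, lincRNA genes in 8.84% and 5.05% of 792. Chromosome 13, singled out after the values were seen, had the highest share of rises of any autosome, 68 of 351 tested genes (19.4%), against 24 falls (6.84%).

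All 3694 called genes had the same sign in both sets of replicates. They were called from these same libraries, which favours equal signs, so this is no separate test of agreement. The test of a different paclitaxel change in replicates 3 and 4 than in replicates 1 and 2 called 0 genes in edgeR, with 552 at an unadjusted p under 0.05 (3.07%), and 0 by DESeq2, voom or with the replicate block. With 2 libraries per group in each set this does not show that the changes were equal.

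Paclitaxel was also tested on top of afatinib, as the combination minus afatinib, which uses no library of the comparison above. Both came from the same fit, with a shared set term and estimate of spread. Labelled RNA concentrations were 685.1, 561.5, 167.6 and 118 ng/µl in combination replicates 1 to 4 and 1134.9, 868.6, 180.6 and 188 with afatinib. Concentration thus moved with paclitaxel here too. With the concentration term edgeR called 4105 genes, and without that term 4935 (27.4%), 2359 higher (13.1%) and 2576 lower (14.3%). Of the 1557 genes that rose with paclitaxel alone 911 rose there too, 58.5% of these and 38.6% of those. Of the 2137 that fell 1414 fell there too, 66.2% and 54.9%, and 19 genes were called in opposite directions. The changes correlated by r = 0.565 (rho = 0.551) across all 17991 tested genes. Among the 2666 genes called with paclitaxel alone at an average log2 CPM of at least 3 r was 0.87. That choice leaves out genes with small changes on 1 side, which by itself raises r. Genes share libraries within each comparison and are not independent replicates.

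The difference between both paclitaxel changes, with afatinib minus without, passed for 159 genes (0.884%), 70 higher (0.389%) and 89 lower (0.495%). With the replicate number as a block it was 501. The G1/S control list had a median of −0.22 without and −0.19 with afatinib, and 13 genes fell in each. Single genes were lower with afatinib: E2F1 changed by −1.47 ± 0.06 (difference −0.54 ± 0.09; adjusted p = 0.00274), E2F2 by −1.53 ± 0.10 (difference −0.71 ± 0.14), CCNE2 by −1.65 ± 0.10 (difference −0.91 ± 0.13; adjusted p = 0.000994) and UNG by −1.25 ± 0.08 (difference −0.73 ± 0.12). PLK1 rose by 0.90 ± 0.05 there (difference 0.41 ± 0.08; adjusted p = 0.00787), and KIF2C, which had not passed with paclitaxel alone, by 0.53 ± 0.05 (difference 0.49 ± 0.07; adjusted p = 0.00168). Spindle and cytokinesis genes rose in 24 of 31 cases there, against 18 without afatinib, and kinesins in 13 of 14 against 8.

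Some histone and amino acid genes also differed. HIST1H2BK rose by 0.59 ± 0.09 with afatinib present (difference −1.05 ± 0.13; adjusted p = 0.000101). The differences were −1.66 ± 0.23 for HIST1H2AC (adjusted p = 0.000994) and −1.24 ± 0.19 for HIST1H1C (adjusted p = 0.00274). CHAC1 fell by 0.61 ± 0.11 there (difference 1.02 ± 0.17; adjusted p = 0.00274), and SLC1A4, at −0.02 ± 0.11, did not pass (difference 0.90 ± 0.16; adjusted p = 0.00773). SLC16A1 reversed, from −0.80 ± 0.13 to 0.60 ± 0.13 (difference 1.40 ± 0.19; adjusted p = 0.000502). TNFAIP3, at 0.13 ± 0.07, did not pass there (difference −0.57 ± 0.09; adjusted p = 0.00274). On the ATF4 list, with afatinib present, 4 of 24 genes fell and 3 rose. These 13 differences kept their call when any 1 of the 16 libraries was left out. Over the whole test 34 to 279 genes passed in those fits, the lowest count without paclitaxel replicate 4 and the highest without paclitaxel replicate 2.

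**Figure D5:**
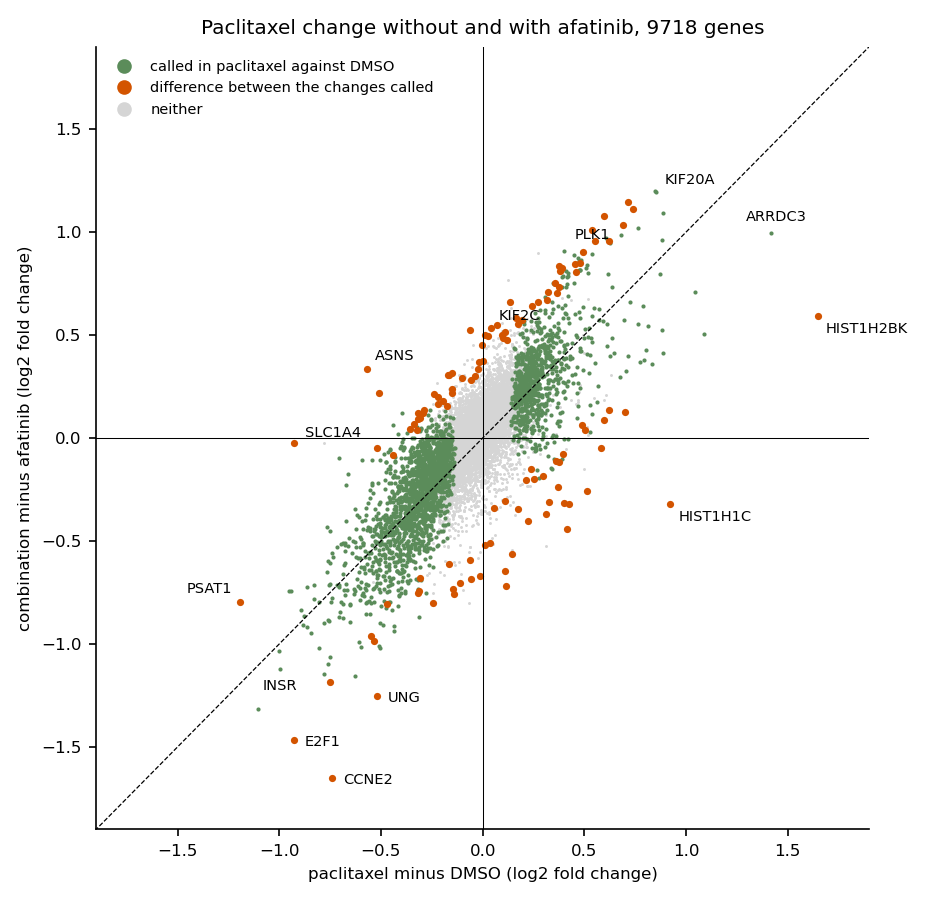
Log2 fold change of the combination against afatinib (vertical axis) over that of paclitaxel against DMSO (horizontal axis) for the 9718 genes with an average log2 CPM of at least 3, green where called in paclitaxel against DMSO and orange where the difference between both changes was called, with a dashed line of equality. The called genes spread along the line, HIST1H2BK and HIST1H1C lie below it, and ASNS lies above it.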

How the data were processed

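RNA of 16 MDA-MB-231 libraries was sequenced. The authors deposited whole-number read counts per gene, made with STAR 2.7.5b and featureCounts of Subread 2.0.1 on hg38, per the submitters' processing notes. A second deposited table holds normalized log2 values that they adjusted for RNA concentration, per the file name and header, and it served only as an alternative. A pair of its numeric columns (2) belongs to no sample and was not used. Whether counting used strand is not given in the sources used here, so overlapping and antisense genes may share reads.

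Of 37864 genes, 17991 passed edgeR's filterByExpr (minimum count 10, minimum total 15). Counts were scaled by TMM and fitted with edgeR 4.0.16 (glmQLFit and glmQLFTest, R 4.3.3) over all 16 libraries, with group and the set of replicates (1 and 2, or 3 and 4) as terms, and p-values were adjusted by Benjamini-Hochberg over all tested genes at a threshold of 0.05. Fold changes are log2 differences ± SE, and CPM values are TMM-scaled. DESeq2 1.42.0, limma 3.58.1 and other settings were alternatives. Only the main edgeR fit was run on simulated counts, with changes planted between paclitaxel and DMSO. Libraries with the same replicate number deviated together in all 4 pairs of DMSO and paclitaxel (correlations 0.367 to 0.662), against 0.384 to 0.48 for other numbers of the same set and −0.63 to −0.296 for the other set. Positions are from GENCODE v29 and promoters from RefSeq on GRCh38.p14, through Python 3.11.15. Named genes were the 15 largest rises and 15 largest falls at an average log2 CPM of at least 3 with the same sign in both sets, members of the gene lists, and the 10 largest differences with afatinib in each direction, and the text gives a selection of these. Members and lists were chosen with earlier results of these data known. Of 1102 list symbols 1088 matched and 1044 were tested.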

Additional observations from a re-analysis of the deposited data

Results flagged for a closer look

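The paclitaxel change differed with afatinib present, by edgeR's test of the difference (log2, with afatinib minus without), for 159 genes. Among the named genes the difference was higher for SLC16A1 (1.40), CHAC1 (1.02), ASNS (0.91), SLC1A4 (0.90), KIF2C (0.49), CENPE (0.48), CKAP2 (0.47), AURKA (0.43), PLK1 (0.41), SGOL2 (0.41), WARS (0.41), PSAT1 (0.40), TRIB3 (0.40), KIF11 (0.39), KIF18A (0.37), NDC80 (0.36), CCNB1 (0.35) and CDC20 (0.33). It was lower for HIST1H2AC (−1.66), HIST2H2BE (−1.40), HIST1H1C (−1.24), HIST1H2BK (−1.05), CCNE2 (−0.91), UNG (−0.73), E2F2 (−0.71), NR1D1 (−0.63), TNFAIP3 (−0.57), E2F1 (−0.54) and GINS2 (−0.45). Of these, SLC16A1, CHAC1, SLC1A4, KIF2C, PLK1, HIST1H2AC, HIST1H1C, HIST1H2BK, CCNE2, UNG, E2F2, TNFAIP3 and E2F1 kept their call whichever of the 16 libraries was left out, and each of the others lost it in at least 1 such fit.

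Single libraries stood far from the other 3 of their group in 8 of 300 groups of 4 values, judged by the gap to the nearest value over the whole range, and chance alone gives about 1 in 20. In DMSO these were NUSAP1 in replicate 4 (143.5 CPM), TROAP in replicate 4 (92.3 CPM) and PER1 in replicate 1 (12.1 CPM). With paclitaxel they were MCM6 in replicate 2 (68.0 CPM), CCNE1 in replicate 1 (15.5 CPM), ARRDC3 in replicate 1 (9.49 CPM), ARRDC4 in replicate 3 (3.52 CPM) and SLC16A1 in replicate 1 (1.55 CPM).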

How the results depend on the processing

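The number of genes called with paclitaxel alone (3694) was 625 without the set term, 1923 with log2 RNA concentration beside it, 1779 in replicates 1 and 2, 796 in replicates 3 and 4, 66 against a 1.5-fold null and 1148 in limma on the deposited log2 table without the set term, where 20.9% of calls were higher against 42.1%, so table, method and set term differ there. It was 2966 to 3565 when 1 library was left out and 4609 with the replicate block. With log2 RNA concentration in place of the set it was 5407, and only 2565 of the 3694 were among these. With afatinib present (4935) the counts were 1143 without the set term, 2528 and 2019 in the separate sets, 107 against 1.5-fold, 2113 in limma on the deposited table and 4027 to 4611 with 1 library left out. For the difference between both changes (159) they were 479 with no filter, 86 at an average log2 CPM of at least 3, 501 with the replicate block, 26 with concentration in place of the set, 3 and 4 in the separate sets, 2 in limma on the deposited table, 367 in DESeq2 and 34 to 279 with 1 library left out. That difference called 0 genes in edgeR without the set term (643 at an unadjusted p under 0.05) and 0 against 1.5-fold. For the change by set, 2 genes were called with no filter. The cause of these shifts was not tested, although fewer libraries entered the separate sets. The replicate block changed the call of 0 of the 146 named genes in paclitaxel against DMSO. Under any setting run, 0 of these genes changed sign while called in the main or the other fit. Genes called in neither fit could change sign, as ATF4 did. Of the 135 named genes that were called, 50 lost the call without the set term, 49 in limma on the deposited table, 5 with log2 RNA concentration beside the set and 8 with it in place of the set (CDK4, PSPH, TRIB3, BCL2L1, PRLR, CCND2, MT-ND4L and MTND4P12). Low counts limit genes under 0 on the log2 CPM scale.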
